A study of Mus musculus with 2 samples.

Results

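Venous-type endothelial cells were 73 of the 3410 cells kept from 2 single-cell RNA libraries of mouse lung, 15 in the library titled niche cells and 58 in the library titled distal lung cells. They were chosen by their own counts of unique molecular identifiers (UMIs, 1 per captured transcript). A kept cell had at least 500 genes and at most 10% mitochondrial UMIs. An endothelial cell had at least 3 UMIs summed over Pecam1, Cdh5, Cldn5, Egfl7 and Ramp2, more of these than of Col1a1, Col1a2, Col3a1, Mfap4 and Bgn together, and under 5% of its UMIs from Sftpc. A member also had at least 1 UMI of Vwf, at least 3 summed over Prss23, Vegfc, Cpe and Ackr3, and under 3 of Car4 and Ednrb together. All genes of this rule are given below as a description of the choice and support nothing. The other 1741 endothelial cells, 485 niche and 1256 distal, served as the comparison within each library.

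Both libraries held lung cells sorted by flow cytometry as negative for CD45, the surface protein of leukocytes, from lungs taken 7 days after Labelling-4T1 cells were given into a vein. The 4T1 line comes from a mouse mammary carcinoma and colonises the lung, and the labelling version was built to release a fluorescent protein that enters neighbouring cells. All cells of both groups came from lungs that had received tumour cells, so no tumour-free group enters these comparisons. Strain, age, sex, number of animals and the gate that parted niche from distal cells are not given in the sources used here. Each group was 1 library, so no comparison has a replicate check, no p-value was computed, and every interval covers counting error only.

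The niche library held 5283584 UMIs over 1473 barcodes and the distal library held 4791701 UMIs over 1996 barcodes. The venous-type cells of the niche contributed 42843 UMIs and those of the distal library 140625, so the niche values are the less precise. A niche member had between 1582 and 7870 UMIs with a median of 2538, and a distal member between 867 and 6091 with a median of 2298. The other endothelial cells had medians of 2345 and 1710 UMIs. The tables shared 7 barcodes, and 1 venous-type cell carried such a barcode. None of the 73 cells was called a doublet, against 10 niche and 27 distal calls among all kept cells.

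Veins collect blood from the capillary bed, and venules are the main place where leukocytes attach to the vessel wall and leave the blood. Venous endothelium stores von Willebrand factor and P-selectin in Weibel-Palade bodies, which fuse with the membrane on activation, and it presents the adhesion ligands VCAM-1 and ICAM-1. Its identity depends on the nuclear receptor COUP-TFII, the product of Nr2f2, which represses the Notch program of arteries. In the lung, veins carry oxygenated blood from the alveolar capillaries towards the heart and run apart from the airways.

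The genes that chose the cells had these levels. Levels are given as UMIs per 1000000 (CPM), scaled to the UMIs of the 10198 genes listed in both tables, and contrasts as log2 ratios of such levels with 0.5 UMI added to each sum. Vwf, the platelet adhesion protein, was at 2005 CPM in distal and 1891 CPM in niche members. Prss23, a secreted serine protease, was at 2503 and 2427 CPM. Cpe, the peptide-processing carboxypeptidase E, was at 718 and 654 CPM, and Ackr3, a scavenging receptor of CXCL12, at 619 and 443 CPM. Vegfc, a growth factor for lymphatic vessels, was at 363 CPM in distal and 163 CPM in niche members. Within the distal members Vwf ran from 1 to 27 UMIs per cell with a median of 4, and the sum of the 4 other genes from 3 to 32 with a median of 7.5. In the niche members Vwf ran from 1 to 15 with a median of 3, and the sum from 4 to 23 with a median of 7.

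The venous label was checked against venous genes that the rule did not use. Of 9 such genes measured, 6 were at least 2-fold higher than in other endothelial cells in both libraries with intervals that left out equality, and 0 were lower. They were Nr2f2 (not in the niche when cells were thinned), Car8, Amigo2, Mustn1, Csrp2 and Vcam1. Of all 8540 genes tested, 0.902% met this rule on the high side and 0.527% on the low side. The list's median log2 ratio was 3.60 in the distal and 2.61 in the niche library (2.63 with sums of 0 set to a floor of 3 UMIs), beside medians over all genes tested of -0.00 and 0.22. The list was written with earlier results of these data known, so its direction is not independent evidence of the label.

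Nr2f2, which encodes COUP-TFII (chr7:70351944-70366735, minus strand, GRCm38), had 21 UMIs in 17 of 58 distal members, or 149 CPM, against 11.4 CPM in other distal endothelial cells. In the niche library it had 11 UMIs in 6 of 15 members, or 257 CPM, against 43.7 CPM. The log2 ratios were 3.72 (95% interval 2.83 to 4.58) and 2.61 (1.48 to 3.50). Nr2f2 was also at 313 and 409 CPM in distal and niche cells that met a lymphatic rule (Prox1, Mmrn1, Pdpn and Reln, or Ccl21a), and at 7.6 CPM or less in the arterial-rule, Car4-rule and remaining endothelial cells of both libraries. The lymphatic rule took only 12 distal and 35 niche cells. Prox1, Mmrn1 and Reln were listed for the niche only, so the distal rule rested on Pdpn or Ccl21a. With the rule applied to cells thinned to 1100 UMIs the niche ratio of Nr2f2 was -0.13, which ends its call there, and without lymphatic-rule cells it was 5.66.

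Nrp2, a neuropilin that binds VEGF-C and class 3 semaphorins, was at 171 CPM in distal members and at a log2 ratio of 3.60 (2.77 to 4.38). In the niche members 5 UMIs gave a ratio of 1.11 (-0.68 to 2.26), beside 517 CPM in niche lymphatic-rule cells. Ephb4, the ephrin receptor of embryonic veins, stood only slightly above the other endothelial cells, by 0.59 (0.03 to 1.07) in the distal and 0.55 (-0.88 to 1.53) in the niche library. Neither value met the 2-fold rule, and the distal and niche intervals overlapped.

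Car8, an acatalytic member of the carbonic anhydrase family (chr4:8143362-8239041, minus strand), was found in 24 of 58 distal members with 45 UMIs, or 320 CPM, against 13 UMIs, or 5.28 CPM, in 1256 other endothelial cells. The distal log2 ratio was 5.88 (5.01 to 6.94). In the niche library 10 UMIs lay in 5 of 15 members and 0 in 485 other endothelial cells. With the 10 UMIs taken as exact, the level was at least 105-fold higher against a floor of 3 UMIs over the group. Their counting error is not in that bound. Cells high in Sftpc, the surfactant gene of alveolar type 2 cells, also held Car8, at 332 CPM in the distal and 275 CPM in the niche library. Sftpc is a gene of the rule, which capped it in all endothelial cells, so its level is description only. It was at 1756 CPM in distal members. In the arterial-rule, Car4-rule and remaining endothelial cells it was at 1855, 2104 and 1961 CPM. The part of type 2 cell RNA in the Car8 values was not tested.

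Amigo2, an adhesion protein, was at 135 and 117 CPM in distal and niche members, with log2 ratios of 3.44 (2.52 to 4.29) and 4.74 (2.66 to 6.69). Mustn1, first known from muscle and bone, was at 384 and 233 CPM, with ratios of 3.68 (3.14 to 4.20) and 2.63 (1.43 to 3.56). Csrp2, a LIM-domain protein of muscle-type cells, was at 604 and 654 CPM, with ratios of 1.49 (1.14 to 1.82) and 2.13 (1.49 to 2.69). Mustn1 was also abundant in cells that met the mesenchymal side of the rule, at 1155 and 738 CPM. Mesenchymal markers outside the rule summed to 128 CPM in distal members and 98.2 to 230 CPM in the arterial-rule, Car4-rule and remaining endothelial cells. In the niche the same sums were 117 CPM and 183 to 245 CPM.

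Selp and Slc6a2 were listed in the distal table only, so no niche value is given for them. Selp, which encodes P-selectin (chr1:164115264-164150026, plus strand), had 74 UMIs in 21 of 58 members and 8 UMIs in 7 of 1256 other endothelial cells. Its levels were 526 and 3.25 CPM, a log2 ratio of 7.26 (6.29 to 8.6), and only 1 UMI lay in the rest of the kept distal cells. Slc6a2, the noradrenaline transporter (chr8:92960079-93001667, plus strand), had 57 UMIs in 27 members and 16 UMIs in 9 of the other endothelial cells. Its levels were 405 and 6.50 CPM, a ratio of 5.93 (5.14 to 6.86). Neither gene had a UMI in the 12 distal lymphatic-rule cells, where Nr2f2 was found. These 12 cells are a weak lymphatic reference, since epithelial markers summed to 8444 CPM over them, in 7 of the 12 cells. Both were named after their values had been seen. Nos3, the endothelial nitric oxide synthase, was likewise listed only in the distal table and had a ratio of 2.31 (0.79 to 3.48) from 7 member UMIs.

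**Figure D1:**
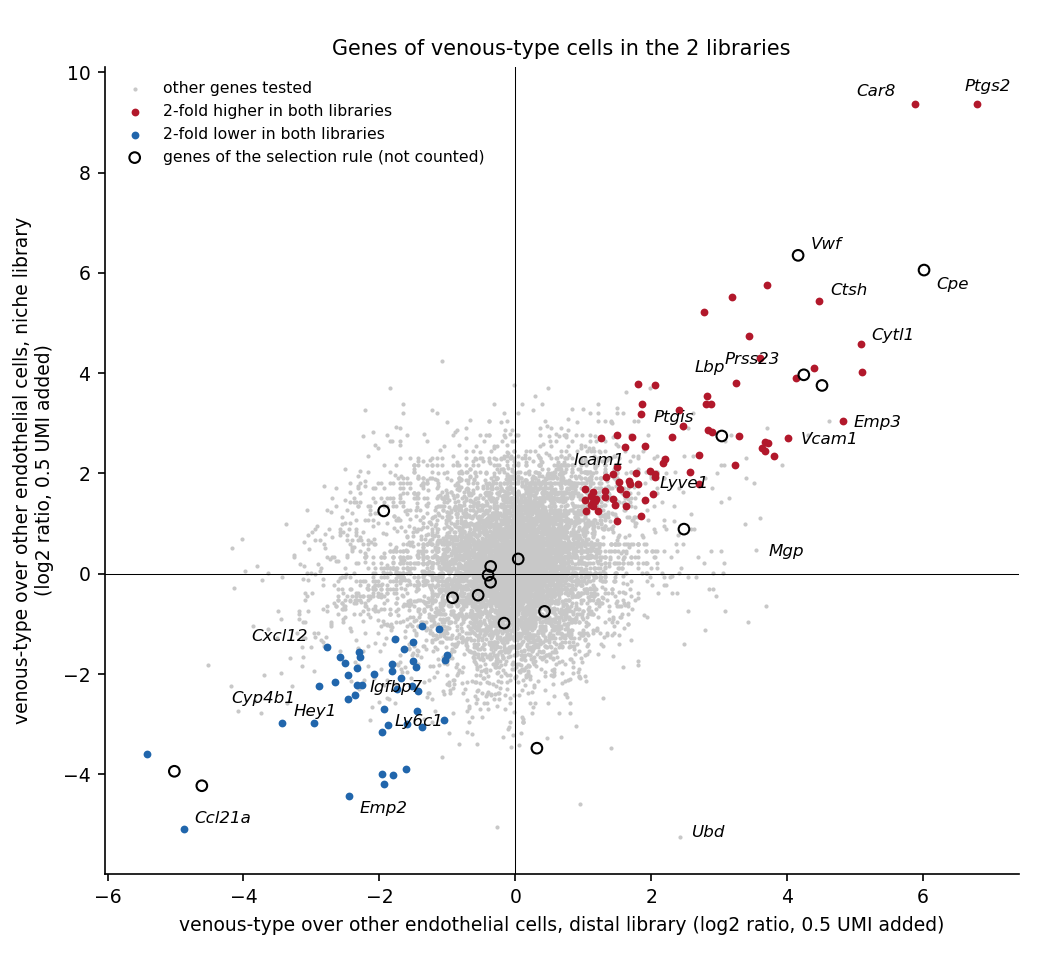
Log2 ratio of venous-type over other endothelial cells in the distal library (x axis) and in the niche library (y axis), each point 1 of the 8540 genes tested, with 0.5 UMI added to each sum. Red points are the 77 genes at least 2-fold higher in both libraries, blue points the 45 lower, and open circles the genes of the selection rule. Genes with 0 UMIs in a group, among them Ptgs2, Car8 and Ubd in the niche, are drawn where the added 0.5 UMI puts them and have only a bound there.

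Beyond the rule genes, 77 of 8540 genes were higher (0.902%) and 45 lower (0.527%) in venous-type cells in both libraries. These are the shares to set beside each list counted in both libraries below. In the distal library alone 305 were higher (3.57%) and 305 lower (3.57%), and in the niche library alone 230 (2.69%) and 126 (1.48%). Scaling by the median of gene ratios gave 47 higher and 96 lower, since it moved all log2 ratios by 0.12 in the distal and 0.50 in the niche library. The 12 genes highest by the interval bound nearest 0 were Fgl2, Lbp, Vcam1, Anxa1, Emp3, Lyve1, Icam1, Fstl1, Nr2f2, Cd81, Rcan1 and Serpinb1a. The 12 lowest were Ccl21a, Igfbp7, Ly6c1, Emp2, Cyp4b1, Pmp22, Hopx, Sparc, Ptp4a3, Dll4, Pllp and Mgll. None of these 24 changed direction under this scaling. Under other settings the niche ratios of Anxa1, Rcan1 and Nr2f2, the distal ratio of Emp2 and both ratios of Ccl21a turned, with values given in the closing section.

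Ligands for leukocytes were uneven. Of 13 leukocyte adhesion genes measured, 2 were higher in both libraries, Vcam1 and Icam1, and 1 was lower, Cd34. Of all genes tested, 0.902% were called higher and 0.527% lower. The list's median was -0.00 in the distal and -0.19 in the niche library (0.10 with sums of 0 at the floor). Missing the 2-fold rule does not show that the other adhesion genes were equal.

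Vcam1, the ligand of integrin alpha4 beta1 (chr3:116109949-116129688, minus strand), had 240 UMIs in 26 of 58 distal members and a highest cell of 36. Its level was 1707 CPM against 106 CPM in other endothelial cells, a log2 ratio of 4.01 (3.75 to 4.27). In the niche 49 UMIs lay in 6 of 15 members with a highest cell of 20, a level of 1144 against 177 CPM and a ratio of 2.70 (2.22 to 3.14). Most members of both libraries had no Vcam1 UMI, and a few cells held much of the sum. Icam1, the ligand of leukocyte beta2 integrins (chr9:21015985-21028817, plus strand), was spread over more cells, 38 of 58 distal and 13 of 15 niche members. Its ratios were 1.77 (1.52 to 2.01) and 2.01 (1.53 to 2.42), from 1223 against 359 CPM and 1144 against 287 CPM. Car4-rule capillary cells stood between, at 699 and 528 CPM of Icam1.

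Cd200, an inhibitory ligand for myeloid cells, was 2.05 (1.79 to 2.29) higher in the distal members and 0.89 (0.22 to 1.45) in the niche members. Lbp, the lipopolysaccharide-binding protein, was at 284 CPM in 24 of 58 distal and 420 CPM in 9 of 15 niche members. Its log2 ratios were 3.25 (2.65 to 3.82) and 3.81 (2.90 to 4.62). Lymphatic-rule cells held Lbp too, at 361 and 193 CPM. Of 16 measured acute phase and NF-kB genes, 2 were higher in both libraries and 0 lower. These were the inhibitor Nfkbia, at 1.21 (1.06 to 1.35) and 1.25 (0.94 to 1.53), and Nfkbiz, at 1.47 (0.97 to 1.92) and 1.37 (0.14 to 2.28). Nfkbia had a UMI in 53 of 58 distal members.

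The gene with the largest distal ratio among those listed in both tables and tested was Ptgs2, the inducible cyclooxygenase, which turns arachidonic acid into the precursor of prostaglandins (chr1:150100031-150108227, plus strand). In the distal library 85 UMIs lay in 25 of 58 members, with at most 9 in a cell, and 13 UMIs in 1256 other endothelial cells. The levels were 604 and 5.28 CPM, a log2 ratio of 6.79 (5.99 to 7.81). In the niche 10 UMIs lay in 4 of 15 members, 6 of them in a single cell, and 0 in 485 other endothelial cells. That is at least 105-fold against the floor, with the 10 UMIs taken as exact. Mesenchymal-rule cells were at 49.4 and 69.9 CPM and Sftpc-high cells at 119 and 66.1 CPM, all below the members of the same library.

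Of 7 measured genes of prostanoid synthesis, 2 were higher in both libraries, Ptgs2 and Ptgis, and 0 were lower. This list was written after its values had been seen. Ptgis, prostacyclin synthase, was 2.89 (2.22 to 3.50) higher in distal and 2.82 (1.32 to 3.94) in niche members. Ptgs1, the constitutive cyclooxygenase, was 3.70 (2.93 to 4.43) higher in distal members, and its niche ratio of 2.91 (-0.57 to 4.89) rested on 2 UMIs. Pla2g4a, the phospholipase that frees arachidonic acid, had 14 UMIs in 11 distal members against 2 in all other endothelial cells, a ratio of 6.67 (4.82 to 10.12). In the niche Pla2g4a had 4 against 2 UMIs, 5.83 (3.18 to 9.44). Of 20 measured haemostasis genes, 3 were higher in both libraries (Ptgis, Ptgs2 and Gas6, a vitamin K-dependent ligand) and 1 was lower. The list's medians were 0.69 and 0.22 (0.44 at the floor).

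The anticoagulant receptors were not equally raised. Thbd, thrombomodulin, was at 917 and 910 CPM in distal and niche members, with ratios of 0.42 (0.15 to 0.68) and 0.86 (0.33 to 1.30), under the 2-fold rule. Procr, the protein C receptor, was 2.89 (1.89 to 3.77) higher in the distal members, and 3 niche UMIs gave 1.72 (-0.83 to 3.19). Of 8 measured genes of Weibel-Palade bodies and their release, 0 were higher in both libraries and Igfbp7 was lower. Of all genes tested 0.902% were higher and 0.527% lower, so a count of 0 in 8 genes says little. Plat was higher in the distal library, and Cd63 was lower in the niche. Vwf, the main content of these granules, was a gene of the rule and not counted, and Selp had a distal value only.

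The sequence before the start of 5 of 12 genes looked up was available in the RefSeq promoter table (GRCm38.p6): Ptgs2, Icam1, Selp, Nfkbia and Igtp. Vcam1, Car8, Ctsh, Slc6a2, Vwf, Lbp and Iigp1 had no entry. The genes and the 6 motifs were chosen after the values had been seen. On both strands of the 250 bases before each start, the motifs were the NF-kB core, GGG, any 2 bases and TTCCC (in 1.53% of 32851 promoters), a GC-rich form of it, GGG, any 3 bases and CCCC (4.51%), the E-box CACGTG (6.02%), the TATA letters TATAAA (12.4%), the cyclic AMP element, TGAC followed by GTCA (1.55%) and the interferon response core, GAAA, any 2 bases and GAAA (2.98%). The first 2 of these can match overlapping sites. A single match was found, in Igtp, and it is shown with the niche comparison. Only these exact letters were searched, so a promoter without a match may hold other forms of the same sites. The Ptgs2 sequence is shown because this gene had the largest distal ratio among the genes tested that both tables list. It lies at chr1:150099781-150100030 on the plus strand, and has no capitals since none of the 6 motifs was present.

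Ptgs2: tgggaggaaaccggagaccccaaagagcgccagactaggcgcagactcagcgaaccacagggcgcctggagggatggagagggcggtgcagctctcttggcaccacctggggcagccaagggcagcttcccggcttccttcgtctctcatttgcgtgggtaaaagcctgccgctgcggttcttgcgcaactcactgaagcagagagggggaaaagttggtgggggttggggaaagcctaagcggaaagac

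Genes of the walls of large vessels were partly higher. Of 12 measured, 5 were higher in both libraries, among them Eln, Fbln5, Ltbp4 and Cytl1, and Clu was lower, with list medians of 1.39 and 1.40. Eln, which encodes elastin, was at 427 CPM in distal and 210 CPM in niche members, with ratios of 2.70 (2.24 to 3.12) and 1.79 (0.54 to 2.71). Fbln5 and Ltbp4, which assemble elastic fibres, had distal ratios of 2.58 (1.93 to 3.15) and 2.03 (1.56 to 2.45). Cytl1, a secreted cytokine-like protein, was at 540 and 210 CPM, with ratios of 5.08 (4.52 to 5.69) and 4.58 (3.14 to 5.93). Col1a1, the collagen of fibroblasts and a gene of the rule, was at 7.1 CPM in distal members and had 0 UMIs in niche members.

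Mgp, matrix Gla protein, an inhibitor of calcification, behaved differently in the 2 libraries. It was at 939 against 80.4 CPM in the distal library, a ratio of 3.55 (3.22 to 3.87), with 34 of 132 UMIs in the highest cell. In the niche it was at 584 against 428 CPM, a ratio of 0.47 (-0.19 to 1.02). Mesenchymal-rule cells held 12152 CPM of Mgp in the niche and 5738 CPM in the distal library, and its level in the other endothelial cells was higher in the same library. The part of free RNA in this value was not tested.

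Some genes high in venous-type cells were also found in lymphatic-rule cells. Lyve1, a hyaluronan receptor, was at 1024 and 980 CPM in distal and niche members, with ratios of 1.98 (1.70 to 2.23) and 2.05 (1.53 to 2.50). Distal lymphatic-rule cells, the weak reference named above, held 794 CPM and niche ones 278 CPM. All other endothelial cells together held 261 CPM in the distal and 239 CPM in the niche library. In the niche, Lyve1 was thus not clearly raised in lymphatic-rule cells. Fgl2, a fibrinogen-like prothrombinase, was 4.13 (3.44 to 4.82) and 3.90 (2.80 to 4.87) higher, at 270 and 303 CPM, beside 722 and 178 CPM in lymphatic-rule cells. In contrast Ccl21a, the lymphatic chemokine, was at 28.4 and 163 CPM in members and at 54799 and 61980 CPM in lymphatic-rule cells.

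None of the 73 members met the lymphatic rule. Pdpn had 0 UMIs in the members of both libraries, and Prox1, the master regulator of lymphatic identity, had 0 in the niche members. The ratios of Ccl21a, -4.88 (-6.93 to -3.69) and -5.10 (-6.51 to -4.15), came from the lymphatic-rule cells within the comparison group. Without those cells they were 0.83 and 1.77. When Lyve1 was counted as a lymphatic marker and cells with 2 UMIs of the lymphatic genes were left out, 27 distal and 7 niche members remained and 23 genes were higher in place of 77.

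Other genes among the highest had varied roles. Ctsh, the lysosomal cathepsin H, was at 498 and 327 CPM, with ratios of 4.48 (3.95 to 5.01) and 5.44 (4.19 to 6.79). Rcan1, an inhibitor of calcineurin, was at 1017 CPM in 34 of 58 distal members, a ratio of 3.80 (3.47 to 4.12). In the niche its 16 UMIs lay in 3 cells, 10 of them in a single cell, and the ratio was 2.34 (1.45 to 3.07). It was -1.66 when cells with 2 UMIs of Prox1, Lyve1, Mmrn1, Pdpn and Reln were left out. Anxa1, annexin A1, had ratios of 3.68 (2.97 to 4.36) and 2.44 (1.57 to 3.16), and its 17 niche UMIs lay in 2 cells. Without the same cells its niche ratio was -0.89. Emp3, a tetraspan membrane protein, had ratios of 4.83 (4.04 to 5.68) and 3.05 (1.54 to 4.21). Cd81, a tetraspanin, had ratios of 2.05 (1.77 to 2.31) and 1.98 (1.46 to 2.44), and Serpinb1a, a protease inhibitor, 2.30 (1.58 to 2.94) and 2.72 (1.44 to 3.71). Fstl1, a secreted glycoprotein, had 2.84 (2.12 to 3.48) and 2.88 (1.49 to 3.94).

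The genes lower in venous-type cells included some of arteries and of the alveolar capillaries. Of 11 arterial genes measured, Hey1, Dll4 and Cxcl12 were lower in both libraries and Jag1 was higher, with list medians of -1.36 and -0.94. Hey1, a Notch target, was at 64.0 and 23.3 CPM in distal and niche members, with ratios of -2.46 (-3.67 to -1.60) and -2.51 (-8.40 to -0.60), the niche value from 1 UMI. Dll4, the Notch ligand of arteries, was 1.80 lower on the log2 scale in the distal library, a ratio of -1.80 (-2.93 to -0.98). It had 0 UMIs in niche members against 255 in the others, at least 2.70-fold lower. Cxcl12, the ligand of CXCR4, had ratios of -2.77 (-4.08 to -1.88) and -1.46 (-3.51 to -0.26). Jag1, another Notch ligand, was 1.26 (0.26 to 2.06) and 2.70 (1.06 to 3.89) higher.

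The arterial connexin genes were not all low. Gja4, connexin 37, had a ratio of -1.36 (-1.91 to -0.90) in the distal members and -0.54 (-1.47 to 0.16) in the niche members. In the distal library 9 of 58 members, and in the niche 3 of 15, had at least 2 UMIs of Gja4 and Gja5. These cells stayed members, since the rule does not use either gene.

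Of 10 genes of the Car4 capillary type measured, 6 were lower in both libraries and 0 higher: Kdr, Apln, Prx, Rprml, Emp2 and Cyp4b1. This list is close to what the rule fixed, since members had to be low in Car4 and Ednrb. Its medians were -2.40 and -2.24, or -1.56 and -1.85 with sums of 0 at the floor. Kdr, the main VEGF receptor, was at 142 and 117 CPM in members against 1052 and 1053 CPM in Car4-rule cells. Its ratios against all other endothelial cells were -1.45 (-2.21 to -0.85) and -1.87 (-3.63 to -0.77). Apln, the apelin ligand, had 0 niche UMIs and met the rule there only through the 0.5 UMI added, since the floor gave at least 1.33-fold lower.

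Among the 12 genes of general capillaries, Sema3c and Hilpda were lower in both libraries and 0 were higher, with medians of -1.09 and -0.38. Hilpda, a lipid droplet protein, had ratios of -2.58 (-3.21 to -2.06) and -1.65 (-2.95 to -0.75). Plvap, the diaphragm protein of fenestrae and caveolae, was at 1963 and 1144 CPM, with ratios of -0.17 (-0.35 to 0.00) and -0.45 (-0.91 to -0.06). Gpihbp1, which anchors lipoprotein lipase, was at 1806 and 2007 CPM in members and 2676 and 2170 CPM in remaining endothelial cells. Of the 12, 7 were lower in the distal library alone, Aplnr, Sema3c, Kit, Hilpda, Tmem100, Lpl and Adgrl3. The list summed to 8249 CPM in distal members against 13504 CPM in remaining endothelial cells, and to 7633 against 10554 CPM in the niche.

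Igfbp7, Ly6c1, Cyp4b1, Pmp22, Hopx and Sparc were among the 12 lowest genes. Igfbp7, a secreted vessel protein, had ratios of -2.32 (-2.62 to -2.06) and -2.22 (-2.71 to -1.80). Ly6c1, a surface protein of capillary endothelium, had -1.93 (-2.24 to -1.66) and -2.70 (-3.35 to -2.16). Cyp4b1, a cytochrome P450 of lung, had -2.89 (-3.66 to -2.28) and -2.24 (-3.45 to -1.39). Pmp22, a tetraspan membrane protein, had -1.75 (-2.50 to -1.15) and -2.29 (-4.06 to -1.20). Hopx, a homeodomain-only protein, had -2.46 (-3.39 to -1.76) and -2.01 (-3.43 to -1.06). Sparc, a matrix-binding glycoprotein, had -2.28 (-2.82 to -1.82) and -1.65 (-2.45 to -1.03). Of 19 basement membrane genes measured, Col4a2, Sparc and Sparcl1 were lower in both libraries and Adamts1 was higher. Among 20 pan-endothelial genes, Fli1 was higher and Cd34 lower in both libraries, with list medians of -0.32 in the distal and 0.13 in the niche library. Missing the 2-fold rule does not show that the other genes were equal.

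Several programs had few or no genes called in both libraries. Of 34 interferon response genes and 18 genes of MHC class I presentation, 0 were higher and 0 lower in both. The same held for 9 cell cycle, 16 glycolysis and hypoxia, and 15 antioxidant genes, and of 18 immediate early genes only Fosb was higher. Of all genes tested 0.902% were called higher and 0.527% lower, so counts of 0 say little of lists this short. By library, 2 interferon genes were higher and 3 lower in distal members, and 2 higher and 7 lower in niche members. The interferon medians were -0.49 and -0.39 (-0.21 at the floor), and those of MHC class I -0.47 and -0.19.

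**Figure D2:**
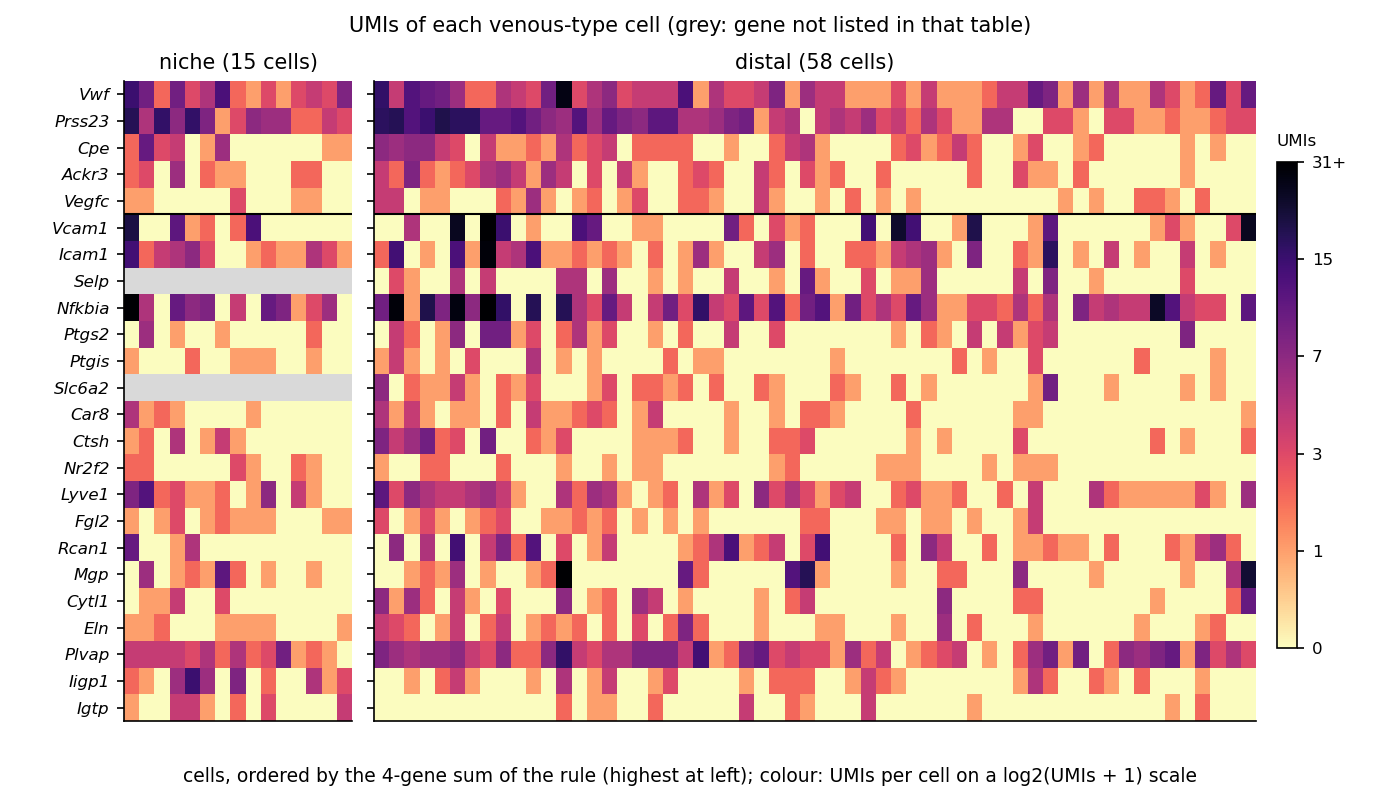
UMIs of selected genes (rows) in each of the 15 niche and 58 distal venous-type cells (columns), ordered from left to right by falling 4-gene sum of the rule, with colour on a log2(UMIs + 1) scale. The 5 rows above the line were used to choose the cells; below it, Nfkbia and Plvap filled most columns while Vcam1, Ptgs2, Selp and Mgp were high in some cells and at 0 in many. Grey rows are genes listed in the distal table only.

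The members were not uniform. In the distal library, Ptgs2 and Selp had UMIs together in 16 of 58 cells, Ptgs2 alone in 9, Selp alone in 5 and neither in 28. Vcam1 and Ptgs2 were found together in 15 cells, Vcam1 alone in 11, Ptgs2 alone in 10 and neither in 22. Ptgs2 and Slc6a2 were together in 16, apart in 9 and 11, and both without a UMI in 22. At this depth a cell without a UMI may still transcribe the gene, and cells with and without Ptgs2 had median depths of 2092 and 2360 UMIs.

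Car8 and Ctsh were found together in 16 distal cells, with Car8 alone in 8, Ctsh alone in 8 and neither in 26. Cells with Car8 were deeper, at a median of 2771 UMIs against 2132 in those without. Mgp and Vegfc were together in only 8 distal cells, Mgp alone in 13, Vegfc alone in 19 and neither in 18. Mgp and Eln, both genes of large vessel walls, were together in 12, with Mgp alone in 9, Eln alone in 14 and neither in 23. These counts describe 58 cells of 1 library, and no test was made of them.

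The threshold of the rule was also described. In the distal library 14 cells met all other parts with a 4-gene sum of 2 and 11 met the rule with a sum of 3. In the niche library 0 cells had a sum of 2 or of 3. A single Vwf UMI admitted 14 distal and 2 niche members, and 42 distal and 28 niche cells met every part but Vwf.

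Venous genes outside the rule were highest inside it. The grades of cells below leave out Car4-rule and lymphatic-rule cells, so they do not add up to all endothelial cells. In the distal library, the 10 venous identity genes listed in both tables summed to 567 CPM in the 700 cells with neither Vwf nor any of the 4 genes. They summed to 1167 CPM in the 43 cells with Vwf and a sum of 1 to 2, just outside. Among members they summed to 2867 CPM in 21 cells with a sum of 3 to 5, 3991 CPM in 15 cells with 6 to 9, and 4224 CPM in 22 cells with at least 10. Venous identity genes therefore stood higher in members with more of the rule's own transcripts, which also had more UMIs per cell, at medians of 1741, 2028 and 3182. The part of depth in this order was not tested.

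Arterial genes ran the other way. The 11 arterial genes summed to 5300 CPM in the 56 distal cells with Vwf and a 4-gene sum of 0, to 4276 CPM in the 43 with a sum of 1 to 2, and to 1579, 1178 and 537 CPM in the 3 member grades. Vwf alone thus marked distal cells that were high in arterial genes. In the niche the arterial sum had no such order among members, at 602, 814 and 865 CPM in grades of only 4, 5 and 6 cells.

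**Figure D3:**
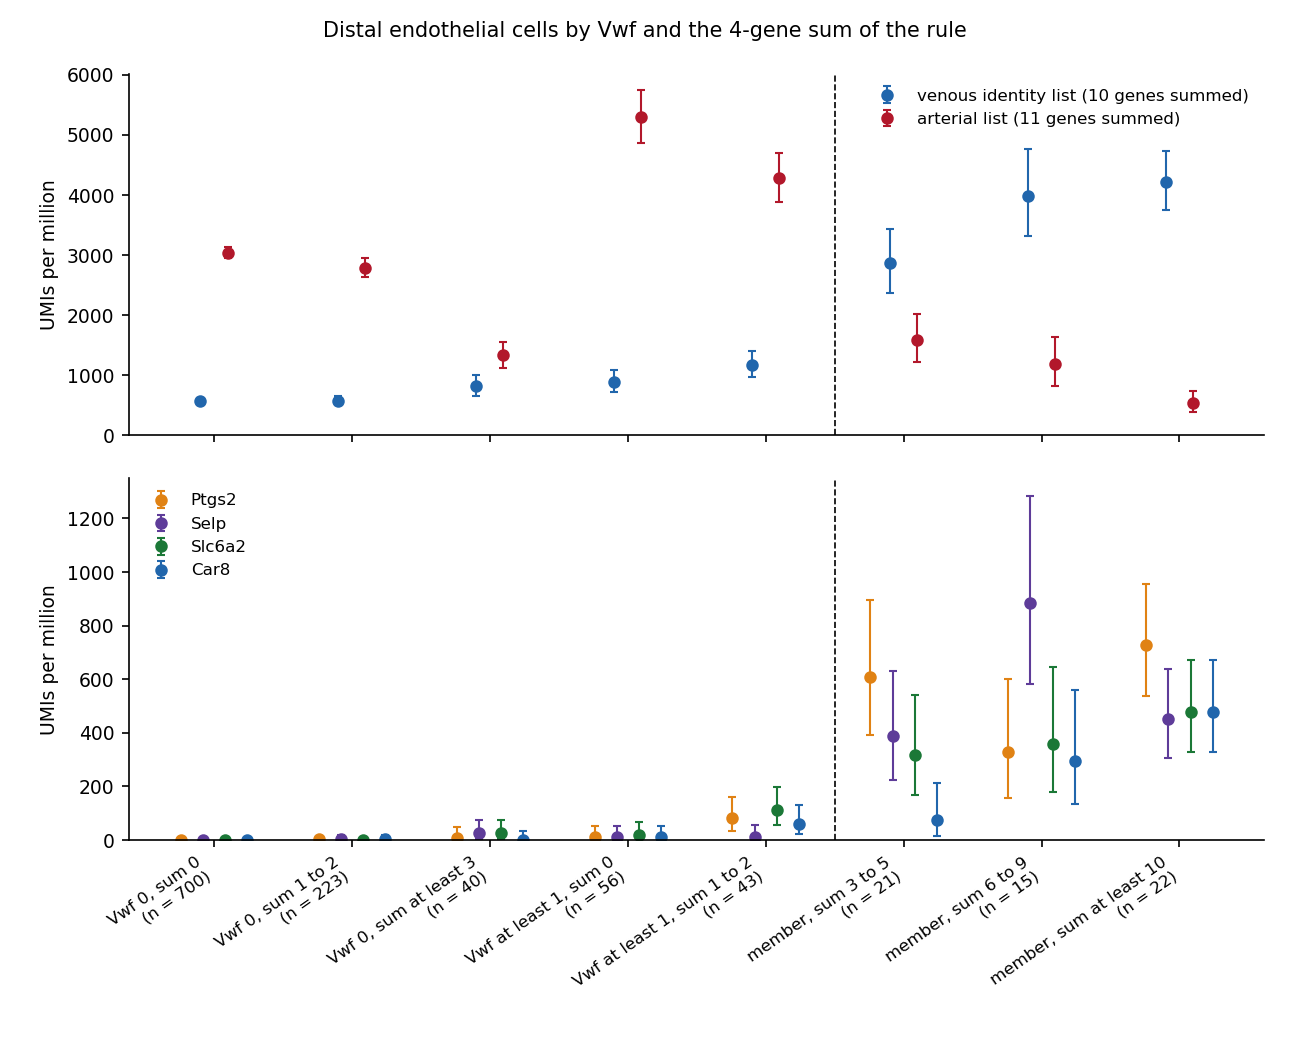
Summed level (CPM, with exact Poisson 95% intervals) in distal endothelial cells grouped by Vwf and by the 4-gene sum of the rule, n cells in brackets, with members right of the dashed line. Car4-rule and lymphatic-rule cells are left out. In the upper panel the venous identity list rises to 4224 CPM and the arterial list falls to 537 CPM in the members with a sum of at least 10. In the lower panel Ptgs2, Selp, Slc6a2 and Car8 stay at or under 111 CPM outside the rule.

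Venous-type cells were 4.41% of distal endothelial cells (58 of 1314, Clopper-Pearson 95% interval 3.37 to 5.67) and 3.00% of niche endothelial cells (15 of 500, 1.69 to 4.90). Of all kept cells they were 2.92% (2.22 to 3.76) and 1.05% (0.591 to 1.73), intervals that did not overlap, over a total that also counts the epithelial and mesenchymal cells of each library. Because the rule needs UMIs, each cell was also thinned to 1100 UMIs. The shares were then 2.94% (32 of 1090, 2.02 to 4.12) and 2.27% (11 of 484, 1.14 to 4.03), with 213 distal endothelial cells too shallow to be used. The intervals of the 2 libraries overlapped at full and thinned depth, so a difference in the share of endothelial cells was not detectable at these counts.

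Levels in the venous-type cells themselves were then compared between the niche and the distal library. Of 3115 genes tested, 50 were at least 2-fold higher in niche members (1.61%) and 64 lower (2.05%), with intervals that left out equality. In other endothelial cells 213 of 9713 genes were higher (2.19%) and 152 lower (1.56%). The venous identity list had 0 of 8 measured genes higher and 0 lower, with a median of -0.42 beside 0.04 over all genes tested.

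Interferon-induced GTPases were among the genes higher in niche members. Iigp1, an immunity-related GTPase, had 49 UMIs in 10 of 15 niche members and 52 in 25 of 58 distal members, or 1144 against 370 CPM. The log2 ratio was 1.63 (1.04 to 2.22), beside 0.36 (0.24 to 0.47) in other endothelial cells. Igtp, another GTPase of this family, had 19 UMIs in 7 niche and 21 UMIs in 11 distal members, or 443 against 149 CPM, a ratio of 1.57 (0.59 to 2.54) beside 0.22 (0.04 to 0.41). The Igtp ratio was 0.49, under 2-fold, when cells with 2 UMIs of Prox1, Lyve1, Mmrn1, Pdpn and Reln were left out, and that of Iigp1 was then 1.92. In both genes the niche cells carried the higher level, and the distal members were below the other distal endothelial cells, which held 639 CPM of Iigp1 and 254 CPM of Igtp. The difference between venous-type and other cells in these ratios was not tested.

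The Igtp sequence before its start, chr11:58199306-58199555 on the plus strand (GRCm38.p6, RefSeq), held the only match of the 6 motifs. It is the interferon response core GAAACTGAAA, in capitals, whose first base lies 34 bases before the start. A match of letters is a description and says nothing of binding.

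Igtp: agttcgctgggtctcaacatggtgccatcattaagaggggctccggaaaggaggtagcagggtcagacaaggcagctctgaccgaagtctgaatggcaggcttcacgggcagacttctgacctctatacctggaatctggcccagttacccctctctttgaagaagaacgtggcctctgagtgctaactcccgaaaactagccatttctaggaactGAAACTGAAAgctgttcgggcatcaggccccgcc

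Of 24 interferon response genes measured in the members, Ifit1, Igtp and Iigp1 were higher in the niche and Ubd was lower, with a median of 0.60. In other endothelial cells 8 of 34 were higher and 0 lower, with a median of 0.41. Ifit1, an antiviral RNA-binding protein, had 17 niche UMIs in 2 cells, 11 of them in a single cell, so its ratio of 2.32 (1.16 to 3.58) rests on very few cells. Of 16 genes of MHC class I presentation, Tap1 and H2-T22 were higher and 0 lower, with a median of 0.27 (0.11 in other endothelial cells). Tap1, a subunit of the peptide transporter, had 9 and 6 UMIs, a ratio of 2.26 (0.65 to 4.07). H2-T22, a nonclassical class I gene whose near-identical relatives can share reads, had a ratio of 1.17 (0.18 to 2.1).

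The chemokines and the ubiquitin-like gene that were high in other niche endothelial cells had few or no UMIs in niche members. Of 485 other niche cells, 131 had a UMI of Cxcl10, 75 of Cxcl9 and 35 of Ubd. With so few positive cells, 15 members cannot show whether venous-type cells differed. Cxcl10 was at 624 CPM in 131 of 485 other niche cells and 160 CPM in the distal ones, a ratio of 1.96 (1.79 to 2.14). In the members it had 2 niche UMIs and 23 distal UMIs, of which 18 lay in a single cell, a ratio of -1.52 (-4.94 to 0.21). Cxcl9 was at 388 against 49.5 CPM in other endothelial cells, while the members held 1 niche UMI and 18 distal UMIs, the latter in a single cell. Ubd had 0 UMIs in niche members and 23 in 1 distal member, beside 443 CPM in other niche endothelial cells, where 598 UMIs lay in 35 cells.

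**Figure D4:**
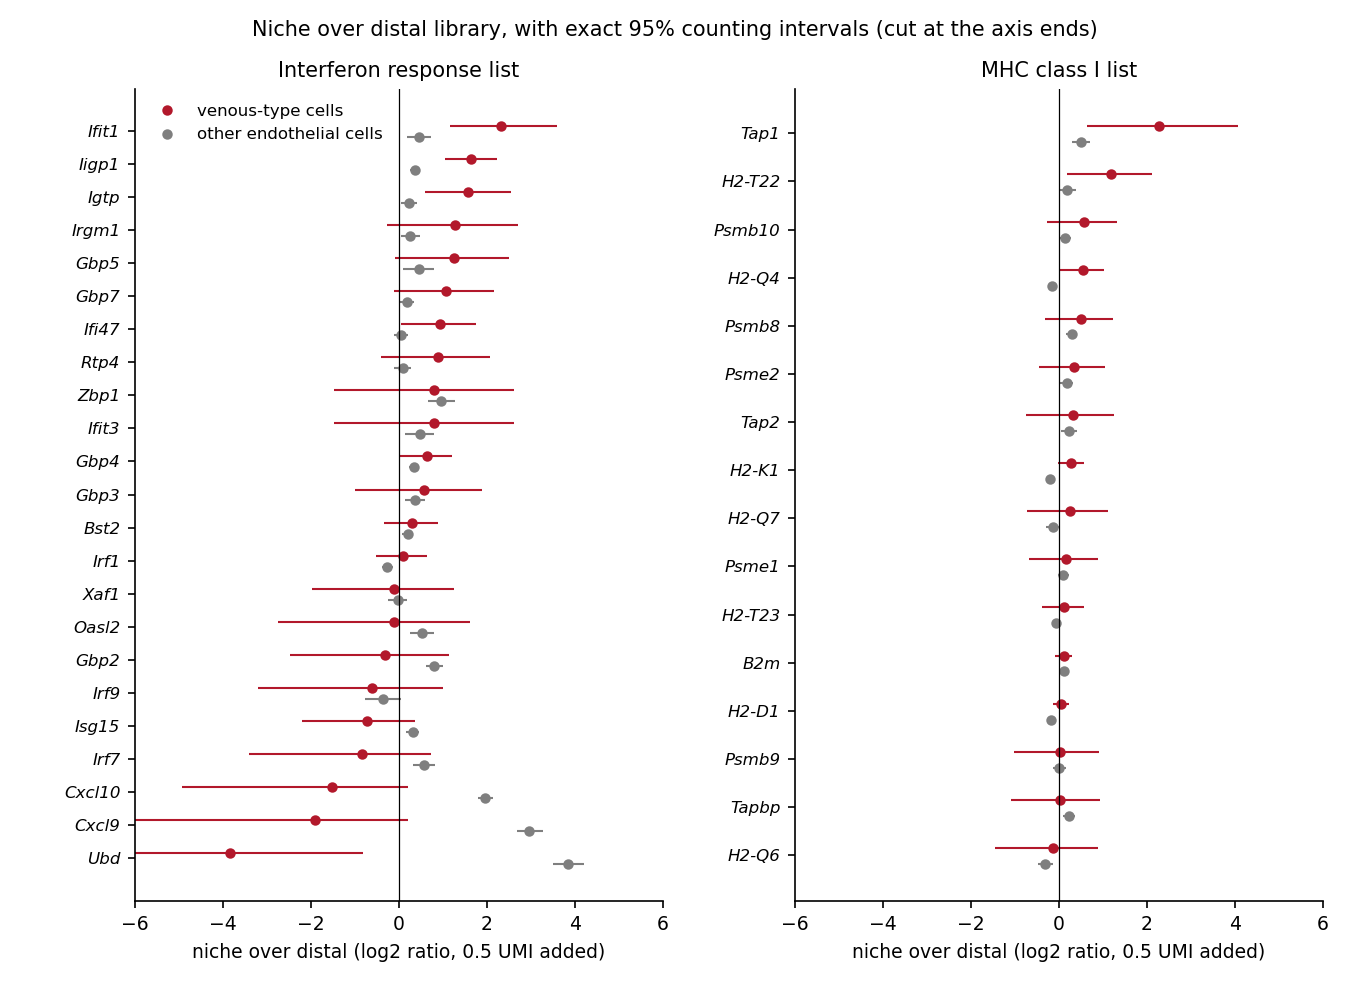
Log2 ratio of niche over distal library (x axis, 0.5 UMI added) for interferon response and MHC class I genes measured in venous-type cells (red) and for the same genes in other endothelial cells (grey), with exact 95% counting intervals. Iigp1 and Igtp lie right of 0 in venous-type cells, and Cxcl10, Cxcl9 and Ubd lie left of 0 there but right of 0 in other endothelial cells. Ubd had 0 UMIs in niche members, so its red point shows only the 0.5 UMI added.

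Within the niche library, Cxcl10 and Cxcl9 in members stood below other endothelial cells at -3.42 (-6.79 to -1.88) and -3.47 (-9.36 to -1.57), from 2 and 1 UMIs. Ubd was at least 6.33-fold lower against the floor. That bound counts UMIs as independent, although the 598 UMIs of the 485 other niche cells lay in 35 cells. A count of 0 in 15 niche members allows a share of cells with a Ubd UMI of up to 20%, by the limit of 3 counts, and sets no limit on cells that transcribe it without a UMI.

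Of 11 adhesion genes measured in niche and distal members, 0 were called higher and 0 lower, with a median of -0.13. Of all 3115 genes tested 1.61% were called higher and 2.05% lower, so counts of 0 say little of a list this short. Vcam1 was at 1144 against 1707 CPM, a ratio of -0.57 (-1.05 to -0.13), and Icam1 at 1144 against 1223 CPM, -0.09 (-0.59 to 0.37). In other endothelial cells Vcam1 had the opposite sign, 0.74 (0.48 to 1.0). Of 15 haemostasis genes, Ptgs1 and Ptgs2 were lower in niche members and 0 were higher, with a median of -0.84. Ptgs2 was at 233 against 604 CPM, a ratio of -1.31 (-2.48 to -0.42), and Ptgs1 had 2 against 28 UMIs, -1.80 (-5.21 to -0.11). The same 2 genes were called lower in other niche endothelial cells, where 3 of 20 haemostasis genes were higher. There Ptgs1 had a ratio of -1.01 (-2.23 to -0.03), and Ptgs2 had 0 niche against 13 distal UMIs. Vwf, used in the choice, was at 1891 and 2005 CPM.

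The 12 lowest genes in niche members by the interval bound were Sftpa1, Ifi27l2a, Apold1, Sox17, Sh3bgrl, Hspb1, Rcan1, Timp3, Psenen, Btg1, Aqp1 and Ptgs2. Ifi27l2a, an interferon-induced gene, had 2 niche and 53 distal UMIs, a ratio of -2.70 (-6.10 to -1.09), against 1.17 (0.87 to 1.47) in other endothelial cells. Timp3, an inhibitor of metalloproteinases, had a ratio of -1.47 (-2.64 to -0.59), against 1.23 (1.05 to 1.42). Sox17, a transcription factor of arteries, had 1 and 33 UMIs and a ratio of -2.77 (-8.68 to -0.75). Apold1, an early response gene of endothelium, had 1 and 35 UMIs and a ratio of -2.85 (-8.76 to -0.84). Rcan1 had a ratio of -1.41 (-2.29 to -0.70) and Aqp1, the water channel, -0.92 (-1.43 to -0.46).

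The 9 genes that met the naming rule on the high side were Scgb1a1, Iigp1, Polr2j, Igtp, Sf3b6, Ppdpf, H2-T22, Ptp4a2 and Cetn3. Polr2j, an RNA polymerase II subunit, had a ratio of 1.80 (0.70 to 2.93), and Sf3b6, a splicing factor subunit, 1.63 (0.55 to 2.70). Both were near 0 in other endothelial cells, at 0.03 (-0.24 to 0.29) and -0.19 (-0.46 to 0.08).

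Scgb1a1, the secretory protein of airway club cells, and the surfactant genes moved between the libraries in all endothelial cells. Scgb1a1 was 2.62 (1.53 to 3.85) higher in niche members and 1.99 (1.79 to 2.20) higher in other niche endothelial cells. Sftpa1 had 0 niche and 30 distal UMIs in members, at least 3.05-fold lower, and Sftpc was at 163 against 1756 CPM. Epcam and Cdh1, which define epithelial cells, had 0 UMIs in the members of both libraries. All 10 epithelial markers, Scgb1a1 among them, gave 41 UMIs in 31 of 58 distal and 22 UMIs in 10 of 15 niche members. They summed to 292 CPM in distal members and 294 to 350 CPM in the arterial-rule, Car4-rule and remaining endothelial cells. In the niche the same sums were 514 CPM and 464 to 651 CPM. The part of free RNA in the Scgb1a1, Sftpa1 and Sftpc ratios was not tested.

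Immune, platelet and erythroid markers were low in the members. Immune markers gave 2 UMIs in 2 of 15 niche members (2 of 8 listed genes, Ptprc at 0) and 20 UMIs in 13 of 58 distal members (1 of 4 listed genes, Lyz2). Of 8 platelet markers 2 were listed, Pf4 and Itga2b, and both were at 0 in members, beside 0 to 6 UMIs in each other endothelial type. The part of platelet RNA in Vwf and Selp was not tested. Of 6 erythroid genes, all were listed in the niche table, where they gave 7 UMIs in members, 163 CPM, beside 7394 to 12733 CPM in the arterial-rule, Car4-rule and remaining endothelial cells. The distal table listed only Hbb-bs, with 0 UMIs in members and 0 to 6.71 CPM in those other types.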

How the data were processed

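Single-cell RNA was measured in 1 niche and 1 distal lung library made with the Chromium Single Cell 3' kit, per the labels' protocols. Cell Ranger 2.1.1, R 3.4.1 and mm10 were used, per the submitters' processing notes. The authors deposited raw UMI counts per gene and barcode, 1 table per library, without normalization. The tables list 10791 and 10814 genes, of which 10198 are in both, and every listed gene had at least 10 (niche) or 12 (distal) UMIs in all, so a gene missing from a table has no value there. Counting ran at the 3' end, so levels are compared between cells and not between genes.

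Filters and the selection rule were applied to the counts with Python 3.11.15, numpy 2.4.6, pandas 2.3.3 and scipy 1.17.1. Scrublet in scanpy 1.11.5 called doublets, which were kept. UMIs were summed over members and over other endothelial cells in each library, scaled to the total over the common genes, and compared as log2 ratios with 0.5 UMI added. Intervals are exact 95% conditional binomial intervals. A gene was tested with at least 10 UMIs, and counted where it reached 2-fold with an interval that left out equality. A group at 0 was set to a floor of 3 UMIs over the group. Figures were drawn with matplotlib 3.10.9. The steps were tested on simulated data.

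The members, the 27 gene and marker lists and the tests were chosen with earlier results of these data known. Genes were named by the bound of their interval nearest equality, 12 in each direction, if they had at least 30 UMIs (between libraries, also past 2-fold without the highest cell), without rule, mitochondrial, ribosomal, haemoglobin and unnamed genes, plus the 4 members of each list with the largest bound, not all of which are reported here. Ctsh, Cytl1, Pla2g4a, Selp, Slc6a2, Nos3, Cxcl9, the prostanoid list, the promoters and the pairs of genes counted together were chosen after their values were seen. For the comparison of cell types, other endothelial cells were parted into Car4-rule, arterial-rule (at least 2 UMIs of Gja5 and Gja4), lymphatic-rule and remaining cells.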

Additional observations from a re-analysis of the deposited data

Results flagged for a closer look

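For 9 genes the venous-type cells differed from other endothelial cells in opposite directions in the distal and the niche library, with counting intervals on opposite sides of equality. In each case the difference between the libraries was not tested. Under scaling by the median of ratios, the niche intervals of Clec14a, Edn1, Epas1 and Iigp1 held equality, at 0.14, 0.12, -0.05 and 0.00, and so did the distal interval of Cd63, at 0.83, so the opposite directions of these 5 genes depend on the scaling. Cd63, a tetraspanin of Weibel-Palade bodies, had log2 ratios of 0.95 in the distal and -2.01 in the niche library, the latter with 0 member UMIs set to the floor. Clec14a, an endothelial lectin, had -0.34 and 0.64. Cxcl9 had 1.40 and -3.47, with all 18 distal UMIs in a single cell. Ubd had 2.43 and, at the floor, -2.66, with all 23 distal UMIs in a single cell. Edn1, endothelin 1, had -0.71 and 0.62, and 23 of its 37 niche UMIs lay in a single cell. Epas1, which encodes HIF-2 alpha, had -0.74 and 0.45, with a UMI in all 15 niche members. Hspb1, a small heat shock protein, had 0.63 and -1.15. Iigp1 had -0.78 and 0.50. Sh3bgrl had 0.76 and -2.45, the niche value from 1 UMI.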

How the results depend on the processing

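No paired analysis was possible because each group was 1 library. The share of endothelial cells meeting the venous rule, distal library, was 5.69% with at least 1000 genes per cell, 3.20% with a 4-gene sum of at least 5, 3.35% with at least 2 Vwf UMIs, 2.94% with the rule on thinned counts, and 2.38% without cells with 2 UMIs of Prox1, Lyve1, Mmrn1, Pdpn and Reln. Under this last setting 23 genes were higher and 27 lower in venous-type cells, and 26 higher in niche members. With the rule on thinned counts these were 34 and 15, and between libraries 13 higher and 14 lower. With the members from full counts and thinned levels they were 33, 24, 21 and 18. Scaling by the median of ratios gave 47 and 96. Leaving out the highest cell of each gene, which by construction takes more from the smaller group, gave 36 and 96, and between libraries 13 and 127. Between libraries 102 genes were higher when 1 UMI sufficed, and 15 were higher and 35 lower with at least 30 UMIs.

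Of the values of single genes under other settings, 828 of the venous-type contrasts stayed within their counting interval, 75 left it and 9 turned, and between libraries 390 stayed, 9 left it and 0 turned. Without the Prox1, Lyve1, Mmrn1, Pdpn and Reln cells the niche ratios were -0.89 for Anxa1, -1.66 for Rcan1 and 0.47 for Ccl21a. With the lymphatic rule that does not use Lyve1, chosen after seeing the data, Ccl21a was at 0.83 in the distal and 1.77 in the niche library. Against other cells without Car4 or lymphatic cells, also chosen after seeing the data, it was at 0.76 and 2.11, and Emp2 at 0.15 in the distal library. The niche ratio of Nr2f2 was -0.13 with the rule on thinned counts. The cause was not tested, except that fewer members, UMIs or genes entered the thinned, filtered and 30 UMI settings. In the comparison of niche with distal members, the median log2 ratios of the interferon, MHC class I, adhesion and haemostasis lists kept their sign under the settings tried. Depth limits the niche values most, since 15 cells gave 42843 UMIs.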
